A study of Mus musculus with 2 samples.

Results

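Sclerotome-like cells were Mesp1-lineage cells of the E9.5 mouse embryo that carried RNA of Pax1 together with RNA of other genes of the somite. They were chosen by these values: among cells in which 1000 or more genes were detected and mitochondrial genes gave no more than 10% of the UMIs (unique molecular identifiers, 1 per captured RNA molecule), a cell was taken with at least 1 Pax1 UMI, at least 1 UMI of Meox2, Tcf15 or Uncx, and 0 Epcam UMIs. This rule took 441 of 16780 cells. The cells came from 2 droplet-based 3′ libraries, with 1 library per group. The Ctrl library held 274 members among 7007 cells and came from Mesp1Cre;Rosa26-GFPflox/+ embryos, in which Cre recombinase expressed from the Mesp1 locus switches on GFP in the early mesoderm and its descendants. The cKO library held 167 members among 9773 cells and came from embryos of genotype Mesp1Cre;Rosa26-GFPflox/+;Tbx1flox/flox, in which the same Cre is meant to remove Tbx1, a T-box transcription factor of the pharyngeal mesoderm, from that lineage. All embryos were Swiss Webster, both groups carried Cre and the reporter, and each library pooled a pair of embryos. The pharyngeal apparatus and the heart were dissected, treated with trypsin, sorted for GFP and against the dead-cell dye DAPI, and loaded on a 10x Chromium instrument. The cKO embryos had slightly more somites than the Ctrl embryos, so genotype, stage, individual embryo and plane of dissection cannot be told apart. No difference between the libraries has a replicate check, and the intervals given are exact 95% intervals that cover counting error only.

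Somites are blocks of paraxial mesoderm on either side of the neural tube. Their ventral part, the sclerotome, loses its epithelial form under Sonic hedgehog from the notochord and floor plate, expresses Pax1 and Pax9, and gives rise to vertebrae, ribs and tendons; the dorsal part, the dermomyotome, expresses Pax3 and gives rise to skeletal muscle and dermis. Each sclerotome is split into a caudal part that expresses Uncx and a rostral part that expresses Tbx18, and its position along the body axis is read from its Hox genes, whose paralogue groups of higher number begin at more posterior levels.

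The kept cells had a median of 17308 UMIs in Ctrl and 14684 in cKO, and 15 cell barcodes occurred in both libraries. Member cells were deeper than the rest of their library, with a median of 19658 UMIs in Ctrl and 18674 in cKO, against 17247 and 14642 in the other cells. Levels are given as CPM, the UMIs of a gene counted per 1000000 UMIs, after summing over the member cells of a library, and rest on 5810008 UMIs in Ctrl and 3555067 in cKO. Tbx1 went against the label: the library labelled Ctrl had 24 UMIs in members (4.13 CPM, 2.65 to 6.15) and the one labelled cKO 75 UMIs (21.1 CPM, 16.6 to 26.4), which gave a log2 ratio of 2.35 (1.67 to 3.08). In members with UMIs of Y-linked genes and none of Xist, the RNA of the inactive X chromosome, Tbx1 was at 13.3 and 17.8 CPM. These rested on 5 and 34 UMIs, a log2 ratio of 0.42 (−0.94 to 2.14). Members with Xist and no Y-linked UMIs held 5 and 4 Tbx1 UMIs. In the other cells Tbx1 was also higher in cKO, at 44.6 against 28.0 CPM. Tbx1 UMIs were found in 5.84% of Ctrl members (3.37 to 9.31) and 17.4% of cKO members (11.9 to 24.0). Among cells with high cardiomyocyte RNA the shares were 5.47% (3.02 to 9.01) and 13.8% (11.0 to 16.9), and among cells with endothelial RNA 11.8% (8.07 to 16.6) and 5.83% (3.14 to 9.76). The cKO share of members thus overlapped that of the first class and lay above that of the second, and whether it was free RNA was not tested. A 3′ count does not tell an intact Tbx1 transcript from one of a recombined allele. No direction below is therefore read as an effect of Tbx1 loss.

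Most members carried several molecules of the genes they were selected on. Pax1, the paired-box factor that gives the sclerotome its usual marker, had a median of 3 UMIs per member in both libraries and a highest count of 16 in Ctrl and 14 in cKO. A single Pax1 UMI decided membership in 67 Ctrl members (24.5%) and 52 cKO members (31.1%). The companion genes had a summed median of 7 UMIs in Ctrl and 6 in cKO, and 17 and 13 members had 1 companion UMI. Just inside the threshold, with 1 UMI of Pax1 and 1 of a companion, lay 8 Ctrl and 5 cKO cells. Just outside it, 20 Ctrl and 26 cKO cells had Pax1 UMIs but none of a companion, and those cells were shallower (medians of 13810.5 and 14457 UMIs). A further 5 Ctrl and 4 cKO cells failed only through an Epcam UMI. In cells that should lack the gene, a Pax1 UMI was seen in 1.17% of the 256 Ctrl and 1.61% of the 558 cKO cells with high cardiomyocyte RNA, and in 1.22% and 0.897% of the 245 and 223 cells with endothelial RNA, at median depths of 18303.5, 17227, 17977 and 14976 UMIs, and whether single Pax1 UMIs of members were free RNA was not tested.

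**Figure D1:**
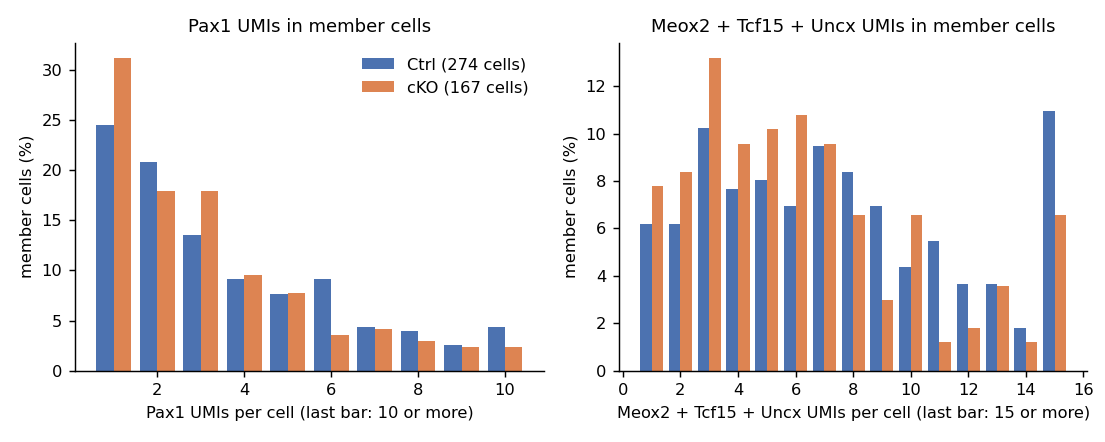
Percent of member cells (y axis) by the number of Pax1 UMIs (left) and of Meox2, Tcf15 and Uncx UMIs together (right) per cell, for 274 Ctrl and 167 cKO members, with the highest counts gathered in the last bar. The largest Pax1 bar in both libraries is 1 UMI, with 24.5% and 31.1% of members, while the companion counts spread around medians of 7 and 6.

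The companion genes did not contribute alike. Tcf15 (Paraxis), a basic helix-loop-helix factor needed for the epithelial form of somites, had UMIs in 92.0% of Ctrl and 94.0% of cKO members, and Meox2, a homeobox factor of somites, in 82.8% and 74.3%. Uncx, the homeobox gene of the caudal sclerotome, had UMIs in 46.4% of Ctrl members (40.3 to 52.4) and 19.8% of cKO members (14.0 to 26.6). As the only companion present, Tcf15 admitted 26 Ctrl and 34 cKO members, Meox2 admitted 11 and 9, and Uncx 3 and 1. A Tcf15 UMI was also found in 24.5% of Ctrl and 33.2% of cKO cells with endothelial RNA, and in 4.69% and 4.84% of cells with high cardiomyocyte RNA. A Tcf15 UMI alone is therefore not particular to somite cells. The summed levels over members were 177 CPM (166 to 188) and 151 CPM (139 to 164) for Pax1 (ENSMUSG00000037034, chr2:147361930-147375049, GRCm38), 173 and 195 CPM for Tcf15 (chr2:152143056-152149097), 134 and 86.6 CPM for Meox2 (chr12:37108540-37179534), and 53.9 and 19.7 CPM for Uncx (chr5:139543865-139548179), Ctrl first. These are values of the genes used for the choice and are given as a description.

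The label was checked on genes that the rule did not use. Pax9, the paralogue of Pax1 in the sclerotome, was at 56.6 CPM (50.7 to 63.1) in Ctrl and 35.7 CPM (29.8 to 42.5) in cKO members, against 3.45 and 4.22 CPM in the other cells. After thinning each cell to 5000 UMIs, 27.7% of Ctrl and 18.0% of cKO members held a Pax9 UMI, against 0 of 256 (exact upper limit 1.43%) and 1 of 558 cells with high cardiomyocyte RNA. Meox1, the somitic partner of Meox2, had UMIs in 96.0% of Ctrl and 92.2% of cKO members. Its shares were 7.81% and 13.6% in cells with high cardiomyocyte RNA and 6.12% and 7.62% in cells with endothelial RNA. Nkx3-2, which Pax1 and Pax9 activate in the maturing sclerotome, had 2 UMIs in each library and was under the floor of 3 UMIs, which stood for 0.516 CPM in Ctrl and 0.844 CPM in cKO. Of the 6 genes listed for presomitic mesoderm, Tbx6, Msgn1, Wnt3a and Fgf17 were at 0 UMIs in both libraries and T (brachyury) had 0 and 1, while Rspo3, shared with other mesenchyme, was at 50.6 and 79.3 CPM. Of 10 endoderm genes 6 were at 0 in both (Cdh1, Cldn6, Foxa1, Shh, Nkx2-1 and Foxe1), but the list summed to 12.6 CPM (9.85 to 15.8) in Ctrl and 61.3 CPM (53.5 to 70.0) in cKO members, against 112 and 155 CPM in the other cells. The keratins Krt8 (6.20 and 22.8 CPM) and Krt18 (5.85 and 35.7 CPM) made up most of it and were at least 2-fold higher in cKO members. Without presumed doublets the list was at 4.77 and 20.3 CPM, and its part in the other values was not tested. The 4 genes the label names were all well above their level in other cells, but Pax1, Meox2 and Tcf15 were selected on, so that Pax9 is the one of them that bears on the name.

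Sclerotome-like cells made up a larger share of the Ctrl library. Their share was 3.91% of cells in Ctrl (3.47 to 4.39) and 1.71% in cKO (1.46 to 1.99), a fold of 2.29 (1.88 to 2.79). With each cell thinned to 5000 UMIs before the rule was applied, the shares were 130 of 6934 cells (1.87%, 1.57 to 2.22) and 69 of 9673 cells (0.713%, 0.555 to 0.902), with 73 Ctrl and 100 cKO cells left out as too shallow. Dermomyotome-like cells, taken by UMIs of Pax3 and Meox1 with 0 Pax1 and 0 Epcam UMIs, were 2.08% of Ctrl (1.76 to 2.45) and 1.29% of cKO cells (1.08 to 1.53). A share of sorted cells moves with the plane of dissection and with the number of other GFP-positive cells, and these cannot be told apart here.

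The difference in share did not run the same way in female and male cells. Sex was read from Xist, the RNA of the inactive X chromosome, and from Y-linked genes. Among Ctrl members, 223 (81.4%) had Xist and no Y-linked UMIs, 21 (7.66%) had Y-linked UMIs and no Xist, 26 had both and 4 neither. Among cKO members the majority was the other way round, with 9 (5.39%) Xist-only, 106 (63.5%) Y-only, 29 with both and 23 with neither. The other cells were mixed in both libraries, with 48.8% Xist-only and 40.1% Y-only in Ctrl and 56.0% and 28.8% in cKO. As a share of Xist-only cells, sclerotome-like cells were 6.36% in Ctrl (5.58 to 7.22) and 0.167% in cKO (0.0764 to 0.317), 38.1-fold higher in Ctrl (19.7 to 84.4). As a share of Y-only cells they were 0.771% in Ctrl (0.478 to 1.18) and 3.69% in cKO (3.03 to 4.44), a ratio of Ctrl to cKO of 0.209 (0.124 to 0.336). The direction of the pooled share was therefore that of the Xist-only cells and the reverse of that of the Y-only cells. Dermomyotome-like cells leaned the same way, with 2.20% against 0.26% of Xist-only cells and 1.76% against 2.71% of Y-only cells, Ctrl first. In each library the members came mostly from cells of 1 sex, so a difference between the libraries cannot be told apart from one between single embryos.

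**Figure D2:**
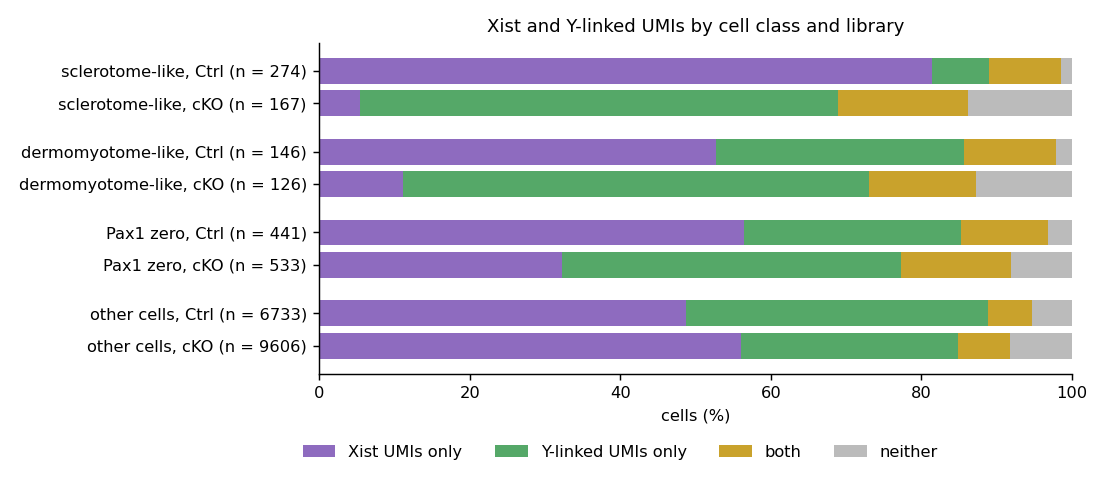
Percent of cells (x axis) with Xist UMIs only, Y-linked UMIs only, both or neither, for sclerotome-like, dermomyotome-like, Pax1 zero (at least 2 companion UMIs, 0 Pax1 and 0 Epcam UMIs) and other cells of each library. Ctrl members are 81.4% Xist-only and cKO members 63.5% Y-only, whereas the other cells hold 48.8% and 56.0% Xist-only cells.

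Part of the members were presumed to be doublets, and whether free RNA of other cells entered the members was not tested. Scrublet scores set at the rate usual for this instrument presumed 416 Ctrl and 804 cKO doublets, of which 27 and 30 were members. Of members with both Xist and Y-linked UMIs, 16 of 26 in Ctrl and 20 of 29 in cKO were presumed doublets, and their median depth was 36913.5 and 33055 UMIs. Of the 9 Xist-only cKO members, 6 were presumed doublets, so values in this class rest on few cells of doubtful purity; the 21 Y-only Ctrl members held 0 presumed doublets. The member cells were kept whole for the values below.

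Of the lists of somite genes, the sclerotome transcription factors stood apart from the other cells in members. Of 7395 genes measured in both, 65 (0.879%) were at least 2-fold higher in members in both libraries and 177 (2.39%) at least 2-fold lower; a gene was measured if, in each library, members or other cells reached 10 CPM and both together held 30 UMIs. Of the sclerotome transcription factors listed beside the rule genes, 9 of 10 measured were at least 2-fold higher. Of 13 matrix and adhesion genes 1 was (Has2) and 2 were at least 2-fold lower (Postn and Tnc), and of 4 cartilage and tendon genes 1 was higher (Col9a1) and 1 lower (Hapln1). Cells chosen by genes of the same profiles differ by construction, so these values describe the class and are no test. Among the 15 highest ratios, after Pax1, Meox2 and Tcf15, came Pcp4, a small calmodulin-binding protein, at 256 CPM in Ctrl and 149 CPM in cKO members against 39.6 and 35.2 CPM in other cells. Foxd1, a forkhead factor, was at 351 and 345 CPM against 74.1 and 85.6, and Sox9, the factor required for cartilage, at 370 and 193 CPM against 86.5 and 53.5. Both forkhead genes required for paraxial mesoderm were among them, Foxc1 with log2 ratios to other cells of 1.88 and 1.10 and Foxc2 with 1.45 and 1.46. Fst, which encodes the BMP and activin antagonist follistatin, had log2 ratios of 1.82 and 2.55, and Rspo3, an enhancer of Wnt signalling, of 1.39 and 2.09. Lum (lumican, a collagen-binding proteoglycan), Col9a1 (a chain of type IX collagen of cartilage) and Cask (a membrane scaffold kinase) were also among them, with ratios between 1.07 and 2.20. The sexes differed here: the smaller of the ratios of both libraries was −0.55 for Lum in Xist-only cells, which held 6 Lum UMIs in cKO members, and −0.26 for Rspo3 in Y-only cells, which held 6 Rspo3 UMIs in Ctrl members. Zic1, a zinc finger factor of dorsal somites and neural tube, was far more selective in Ctrl (log2 ratio 4.93) than in cKO (2.38).

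Against dermomyotome-like cells, members of both libraries had more RNA of Pax9, Sox9, Foxc1 and Foxc2 and less of genes of the dermomyotome and of muscle precursors. Pax9 had log2 ratios of members to dermomyotome-like cells of 5.99 (4.43 to 8.28, against 3 UMIs) in Ctrl and 5.48 (3.60 to 8.54, against 2 UMIs) in cKO. Sox9 was higher by 3.20 and 2.54, Foxc1 by 2.06 and 1.35, and Foxc2 by 1.65 and 1.46. Of the other genes named for their ratio to all cells, Lum was higher by 3.36 and 4.34 and Rspo3 by 3.41 and 3.55. Genes of the hedgehog pathway went both ways: Ptch1, the hedgehog receptor that is itself induced by hedgehog, was higher in members by 1.18 and 1.67, whereas the co-receptors Gas1 (−1.47 and −1.36), Cdon (−1.62 and −0.98) and Boc (−1.64 and −1.18) and the effector Gli3 (−1.07 and −0.59) were lower. In the other direction, Lbx1, a factor of migrating muscle precursors, had log2 ratios of −5.09 and −5.70. Met, the receptor those precursors need, had a ratio of −3.66 in Ctrl and of −4.45 (−6.78 to −2.81) in cKO, where members held 3 UMIs. Dmrt2, a factor of the dermomyotome, had a ratio of −8.05 (−11.10 to −6.19) in Ctrl, where members held 2 UMIs, and of −3.97 in cKO. Zic1, though known from dorsal somites, was higher in members, by 1.77 (1.41 to 2.14) in Ctrl and with 59 UMIs in members against 0 in cKO. Meox1 (−0.08 and −0.27) and Fst (−0.48 and −0.31) were at close levels in both classes, though Meox1 had been used to choose the dermomyotome-like cells. Pcp4, named above for its ratio to all other cells, was not set apart from dermomyotome-like cells in Ctrl (0.07, −0.05 to 0.20) and was lower in cKO members (−0.59). Tcf15, a gene of the rule, was lower in members than in dermomyotome-like cells, with ratios of −1.04 and −0.60. Cells with at least 2 companion UMIs but 0 Pax1 and 0 Epcam UMIs were closer to the members on several of these genes: the log2 ratios of members to them were 3.13 and 1.37 for Pax9, 2.01 and 1.18 for Sox9, 1.26 and 0.48 for Foxc1, 1.93 and 0.25 for Lum and 0.52 and 0.34 for Ptch1, Ctrl first. Lbx1 was lower in members against these cells too, with ratios of −3.75 and −3.84.

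Between the libraries, 104 of 7659 measured genes (1.36%) were at least 2-fold higher in cKO members and 151 (1.97%) at least 2-fold lower. The median log2 ratio of cKO to Ctrl over the measured genes was −0.09. More of all measured genes were thus lower than higher in cKO members, and the counts of lower list genes below are to be read beside this. Of the genes past 2-fold, 21 of the 104 and 26 of the 151 differed at least 2-fold in the same direction in the other cells too. Without presumed doublets 230 genes were lower. A gene was measured here with at least 10 CPM in 1 library and at least 30 UMIs over both libraries together. The 12 highest and 12 lowest ratios, described below beside the genes of the lists, were taken from genes with at least 50 CPM in 1 library and the same direction in Xist-only and in Y-only members.

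Sclerotome transcription factors were mostly lower in cKO members, few of them by much. Of 10 measured, 8 were lower and 2 higher, 2 of them at least 2-fold lower, and the median log2 ratio was −0.61, against −0.19 for the same genes in the other cells. Zic1 was at 75.7 CPM (68.8 to 83.1) in Ctrl and 16.6 CPM (12.6 to 21.4) in cKO, a log2 ratio of −2.19, and Foxc1 at 191 and 86.6 CPM, a ratio of −1.14. Sox9 had a ratio of −0.94, Sox6 of −0.79, Pax9 of −0.66, Sox5 of −0.56 and Meox1 of −0.27. Foxc2, at 74.7 and 74.5 CPM, and Twist1, a mesenchymal factor at 582 and 612 CPM, were within 0.07 of equality on the log2 scale. Within sexes the list split: Pax9 was at 64.7 CPM in Xist-only Ctrl and 18.1 CPM in Xist-only cKO members, but at 37.2 and 43.6 CPM in Y-only members, and over Y-only members the median of the list was 0.05. Zic1 went in opposite directions in the sexes. In Xist-only members it was lower in cKO, with 86.7 CPM (78.2 to 95.8) in Ctrl and 0 UMIs (up to 16.7 CPM) in the 9 cKO cells, and in Y-only members it was higher in cKO, with 0 UMIs (up to 9.81 CPM) in the 21 Ctrl cells and 19.4 CPM (13.7 to 26.8) in cKO. The lower pooled level of Zic1 was thus that of the Xist-only members and the reverse of that of the Y-only members.

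Hox genes of paralogue groups 3 to 5, which mark the hindbrain and neck levels of the axis, were lower in cKO members. All 12 measured Hox genes were lower in cKO members, 6 of them at least 2-fold, with a median log2 ratio of −0.97, against −0.65 for the same genes in the other cells. Hoxd4 (ENSMUSG00000101174) was at 83.8 CPM (76.5 to 91.6) in Ctrl and 7.03 CPM (4.55 to 10.4) in cKO, a log2 ratio of −3.58 (−4.22 to −3.00), against −0.78 in the other cells. Hoxb4 (ENSMUSG00000038692) was at 123 CPM (114 to 132) and 18.6 CPM (14.4 to 23.6), a ratio of −2.72 (−3.11 to −2.36), against −0.64 in the other cells. Hoxb5 was at 34.3 and 3.09 CPM (−3.47), Hoxd3 at 11.0 and 2.25 CPM (−2.29) and Hoxb3 at 99.5 and 30.4 CPM (−1.71). The gene models of Hoxb3 (chr11:96307101-96347930) and Hoxd3 (chr2:74711993-74748271) span those of Hoxb4 (chr11:96318267-96321638) and Hoxd4 (chr2:74721978-74729160) on the same strand, so reads could be divided between the genes of each pair.

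Group 2 differed least among the groups above the floor. Summed over the genes of a group, members had 121 CPM (112 to 130) of group 2 in Ctrl and 100 CPM (90.3 to 111) in cKO, a log2 ratio of −0.27 (−0.46 to −0.08). Group 1 was at 26.7 and 16.6 CPM (−0.68, −1.14 to −0.24). Group 3 was at 141 and 48.9 CPM (−1.53), group 4 at 227 CPM (214 to 239) and 38.0 CPM (31.8 to 44.9), a ratio of −2.58 (−2.84 to −2.32), and group 5 at 51.8 and 13.5 CPM (−1.94). Groups 6 to 9 were at or near the floor in both, with 3 and 8 UMIs for group 6. In dermomyotome-like cells group 4 was also lower in cKO, at 190 and 59.6 CPM (−1.68), and group 2 was at 178 and 170 CPM, whereas in all other cells group 4 was at 139 and 98.8 CPM (−0.50). The order held within both sexes for group 4, with 233 and 113 CPM in Xist-only (−1.04, −1.67 to −0.47, with 9 cKO cells) and 168 and 14.7 CPM in Y-only members (−3.51, −4.21 to −2.85), but the median over the measured Hox genes in Xist-only members was −0.092. Groups 3 (−0.58, −1.28 to 0.05), 5 (−0.36, −1.50 to 0.59) and 1 (0.68, −0.67 to 1.79) were within counting error in Xist-only members. In Y-only members groups 3 (−1.47), 5 (−4.84, from 17 and 3 UMIs) and 1 (−1.91) were lower in cKO. A group 4 UMI was found in 258 of 274 Ctrl members (94.2%) and 47 of 167 cKO members (28.1%). In cKO these 47 were deeper, with a median of 25141 UMIs against 17363.5 in members without one, and 20 of them were presumed doublets. As background, a UMI of Hoxb4 alone was found in 81.4% of Ctrl and 21.6% of cKO members (15.6 to 28.6), against 17.6% and 18.5% of cells with high cardiomyocyte RNA and 27.3% and 30% of cells with endothelial RNA, so that the cKO share was not above that of cells outside the somite. A UMI of Hoxd4 was found in 74.8% of Ctrl and 11.4% of cKO members (6.99 to 17.2), against 3.52% and 2.33%, and 8.16% and 4.04%, of those cells. The embryos' somite number and the plane of dissection along the axis were not controlled between libraries, and their part in the Hox difference was not tested.

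**Figure D3:**
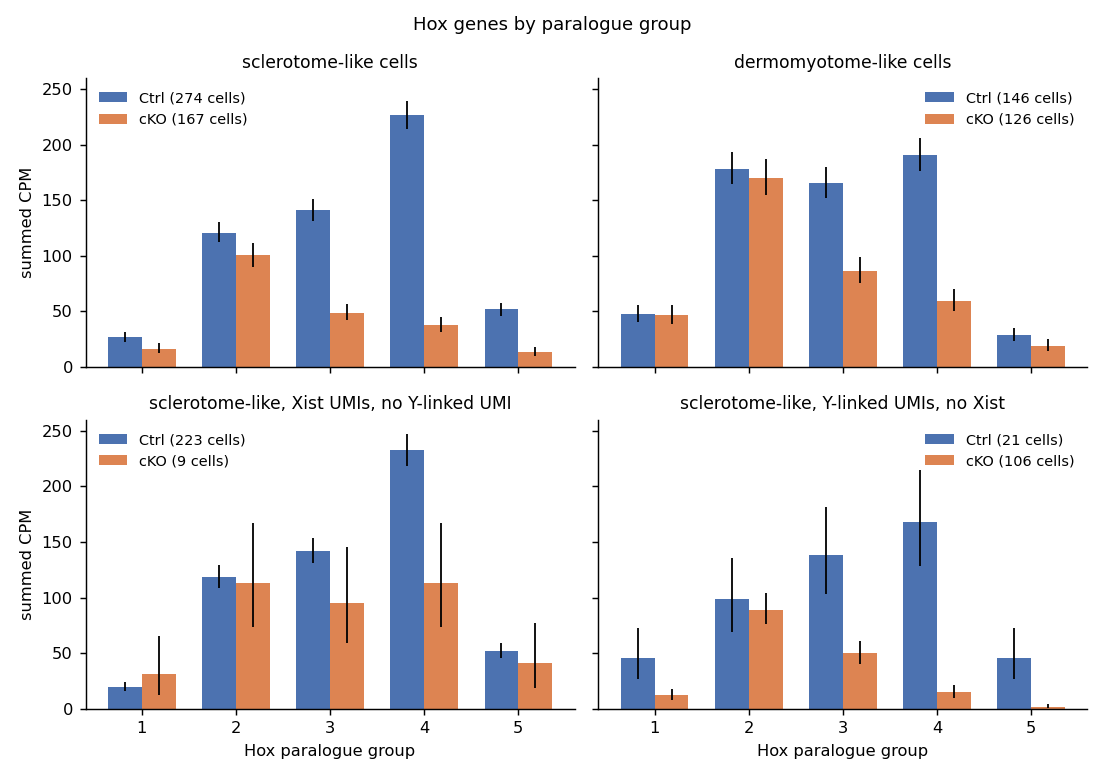
Summed CPM (y axis) of the Hox genes of paralogue groups 1 to 5 (x axis) in Ctrl and cKO cells, for sclerotome-like cells, dermomyotome-like cells, and Xist-only and Y-only sclerotome-like cells, with exact Poisson 95% intervals as error bars. In sclerotome-like cells group 2 is 121 CPM in Ctrl and 100 CPM in cKO, and group 4 is 227 CPM in Ctrl and 38.0 CPM in cKO.

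Group 3 and 4 Hox genes are classic targets of retinoic acid, whose receptors bind as dimers to repeats of the half-site AGGTCA. The promoters of Hoxb4, Hoxd3 and Hoxd4, from 250 bases before to 50 bases after the annotated start (RefSeq, GRCm38.p6), are shown because these genes differed together; 3 of the 5 genes Hoxb3, Hoxb4, Hoxb5, Hoxd3 and Hoxd4 had an entry. Capitals mark the half-site, searched on both strands as AGGTCA and TGACCT.
Hoxb4, chr11:96318017-96318316, plus strand: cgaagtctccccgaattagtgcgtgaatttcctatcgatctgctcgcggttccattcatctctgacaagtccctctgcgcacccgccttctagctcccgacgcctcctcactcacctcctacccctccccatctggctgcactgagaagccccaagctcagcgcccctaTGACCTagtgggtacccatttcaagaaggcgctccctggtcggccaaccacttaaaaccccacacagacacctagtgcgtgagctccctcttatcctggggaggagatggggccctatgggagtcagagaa
Hoxd3, chr2:74711743-74712042, plus strand: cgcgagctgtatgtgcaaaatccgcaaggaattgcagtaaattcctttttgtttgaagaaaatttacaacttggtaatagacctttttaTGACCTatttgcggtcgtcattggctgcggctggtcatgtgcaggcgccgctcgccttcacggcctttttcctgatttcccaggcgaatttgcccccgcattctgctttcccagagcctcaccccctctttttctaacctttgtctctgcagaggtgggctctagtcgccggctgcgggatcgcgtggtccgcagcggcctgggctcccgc
Hoxd4, chr2:74721728-74722027, plus strand: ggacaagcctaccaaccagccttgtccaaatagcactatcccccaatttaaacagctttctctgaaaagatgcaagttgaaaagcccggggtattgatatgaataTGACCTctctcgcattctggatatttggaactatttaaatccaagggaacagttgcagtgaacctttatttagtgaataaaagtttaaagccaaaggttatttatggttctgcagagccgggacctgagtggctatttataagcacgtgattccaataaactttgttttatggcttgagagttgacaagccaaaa
Each window held 1 match, in the TGACCT orientation, which is a match of letters and not a known site. The same half-site was found in 5340 of 32851 promoter windows of this length (16.3%).

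Aldh1a2, the enzyme that makes retinoic acid in somites, was at 203 CPM (191 to 215) in Ctrl and 45.9 CPM (39.1 to 53.5) in cKO members, a log2 ratio of −2.14 (−2.39 to −1.91), against −0.73 in the other cells. This ratio was that of the Xist-only members, at 221 and 36.2 CPM (−2.61); in Y-only members Aldh1a2 was at 55.9 and 46.2 CPM (−0.27, −0.97 to 0.49). Of 7 measured genes of the retinoic acid list, 5 were lower and 2 higher, 1 of them at least 2-fold, with a median of −0.24. The receptors Rara (23.2 and 19.7 CPM) and Rarb (14.5 and 12.7 CPM) were within counting error, and the cytosolic retinoic acid binding protein Crabp2 was higher in cKO, at 72.6 and 107 CPM (0.56).

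Beside the Hox genes and Aldh1a2, the lower named genes were Tshz1, a teashirt zinc finger factor of trunk mesoderm, at 142 and 45.0 CPM (−1.65), Mycn, a growth regulator, at 97.2 and 39.7 CPM (−1.29), and Zfhx4, a large zinc finger homeobox factor, at 94.7 and 42.5 CPM (−1.16). Tshz1 was also lower in the other cells (−1.19), Mycn and Zfhx4 less so (−0.47 and −0.36). Cthrc1, a secreted protein of matrix-producing cells, was at 50.9 and 21.4 CPM (−1.25) in members but higher in cKO in the other cells (0.90), and Sparcl1, a matrix glycoprotein, was at 108 and 47.3 CPM (−1.20) against −0.08 in the other cells. Uncx, selected on, had a ratio of −1.45 against 0.15 in the other cells. In dermomyotome-like cells Sparcl1 (−1.91, −2.46 to −1.40), Uncx (−1.36), Zfhx4 (−1.28) and Tshz1 (−1.19) were lower in cKO too. Mycn (−0.28) and Cthrc1 (−0.47) differed there by less than the counting error. Tpm3-rs7, at 155 and 5.34 CPM (−4.86), and the unnamed transcript Gm26735, at 54.7 and 20.8 CPM (−1.39), had nearly the same ratios in the other cells (−4.58 and −1.41). Tpm3-rs7 is named as a sequence related to Tpm3, which was at 219 and 389 CPM in members (0.83), and whether reads were divided between the genes was not tested.

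Genes that read out signals to the sclerotome were mostly lower in cKO members, and so were the same genes in the other cells. Of 6 measured genes of the hedgehog pathway, 6 were lower, 0 at least 2-fold, with a median of −0.59, and the same genes had a median of −0.76 in the other cells. Ptch1 was at 116 CPM (107 to 125) and 79.0 CPM (70.1 to 88.8), the co-receptor Gas1 at 126 and 94.0 CPM, the transducer Smo at 63.0 and 49.5 CPM, and Gli1, a direct target read from 51 and 10 UMIs, at 8.78 and 2.81 CPM (−1.64, −2.79 to −0.65). In Y-only members Ptch1 was read from 36 of 375881 UMIs in Ctrl and 160 of 1905442 UMIs in cKO, levels closer to each other than the pooled ones. Of 5 measured Wnt genes 4 were lower and 2 at least 2-fold (median −0.78, −0.88 in the other cells): the targets Axin2 (16.0 and 6.75 CPM) and Lef1 (34.9 and 12.9 CPM) were lower, while the secreted inhibitor Sfrp1 was higher (37.2 and 53.7 CPM). The BMP list was balanced in members, with 3 of 7 measured lower, 4 higher and a median of 0.00, against −0.53 in the other cells. The BMP target Id3 was at 210 and 298 CPM (0.51), Id2 at 197 and 197 CPM, and the antagonist Fst at 119 and 128 CPM. In the FGF list 5 of 6 measured were lower and the median was −0.50. The receptor Fgfr1 was at 60.8 and 35.4 CPM and the feedback phosphatase Dusp6 at 60.9 and 41.3 CPM, whereas the ligand Fgf8 was higher in cKO, at 6.37 CPM (37 UMIs) and 13.2 CPM (47 UMIs), against a ratio of −1.46 in the other cells.

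Genes of cartilage and of the matrix were expressed without the late cartilage products. Col2a1, the main collagen of cartilage, was at 80.2 and 50.9 CPM, Col9a1 at 116 and 85.2 CPM and Col11a1 at 30.5 and 22.5 CPM, with 3 of 4 measured genes of the list lower in cKO and a median of −0.44. Aggrecan (Acan) and matrilin 1 (Matn1) were at 0 UMIs in both libraries, Runx2, the bone factor, at 1 and 2 UMIs, and the tendon factor Scx at 16 and 23 UMIs. Of 11 measured matrix and adhesion genes, 7 were lower and 4 higher, 0 of them 2-fold, with a median of −0.35. Col3a1, a fibrillar collagen, was at 531 and 338 CPM and fibronectin (Fn1) at 123 and 70.9 CPM, while versican (Vcan), a proteoglycan of loose mesenchyme, was at 464 and 534 CPM and Has2, the hyaluronan synthase, at 69.5 and 92.8 CPM. Of 12 measured guidance genes, 11 were lower, 1 at least 2-fold, with a median of −0.50 (−0.54 in the other cells). The chemokine Cxcl12 was at 265 and 177 CPM (−0.58) and the neuropilin Nrp2, a semaphorin receptor, at 156 and 123 CPM, and Unc5c, a netrin receptor, was the one past 2-fold, at 13.6 and 4.78 CPM (−1.51). The cell cycle lists were nearly even, with medians of −0.03 over 12 S phase genes and −0.11 over 12 G2/M genes.

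Of the 12 named genes that were higher in cKO members, 7 were genes of heart and smooth muscle and 5 were at least 2-fold higher in the other cells as well. Myl7, the atrial myosin light chain, was at 47.0 CPM (41.6 to 52.9) in Ctrl and 309 CPM (291 to 328) in cKO, a log2 ratio of 2.72, Actc1 (cardiac actin) at 53.2 and 321 CPM (2.59), and Acta2 (smooth muscle actin, expressed in the early heart) at 29.6 and 141 CPM (2.25). Crip2, a LIM protein of the heart, Tnni1, Myl4 and Ttn, all 3 of the sarcomere, had ratios of 2.25, 1.90, 1.56 and 1.44. Much of this RNA lay in few cells: 458 of the 1100 cKO UMIs of Myl7 came from the 9 Xist-only members, 6 of them presumed doublets. Myl7 was at 23.1 and 2073 CPM in Xist-only members and at 2.66 CPM (1 UMI) and 28.3 CPM in Y-only members. In Y-only members Tnni1 was read from 1 and 6 UMIs, a log2 ratio of 0.24 (−2.80 to 5.77). The whole cardiomyocyte list moved with them: 6 of 6 measured genes were at least 2-fold higher, and its summed level was 129 CPM (120 to 138) in Ctrl and 592 CPM (567 to 618) in cKO. Without the 3 Ctrl and 6 cKO members that had high cardiomyocyte RNA it was 29.6 and 144 CPM, and without presumed doublets 13.7 and 217 CPM. The defining markers were not at 0, and the part of heart muscle RNA in these ratios was not tested further. Erythroid RNA also differed, with a summed level of 0.344 CPM in Ctrl and 2165 CPM in cKO, of which 7302 of 7698 UMIs lay in the 30 presumed doublets. Embryonic globin Hbb-y had a UMI in 80.2% of cKO members, near the 75.8% of cKO cells with high cardiomyocyte RNA and the 71.3% of those with endothelial RNA. Endothelial genes summed to 45.6 and 71.7 CPM. The remaining higher genes were Il11ra1, a cytokine receptor chain with near-identical copies in the mouse genome, at 6.54 and 65.8 CPM (3.33), Ubb (ubiquitin), at 104 and 466 CPM (2.16), the histone Hist1h2ap, at 69.2 and 199 CPM (1.53), and the unnamed transcripts Gm10076 (1.99) and Gm10260 (1.42). In the other cells their log2 ratios lay between 1.5 for Gm10260 and 3.16 for Ubb.

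**Figure D4:**
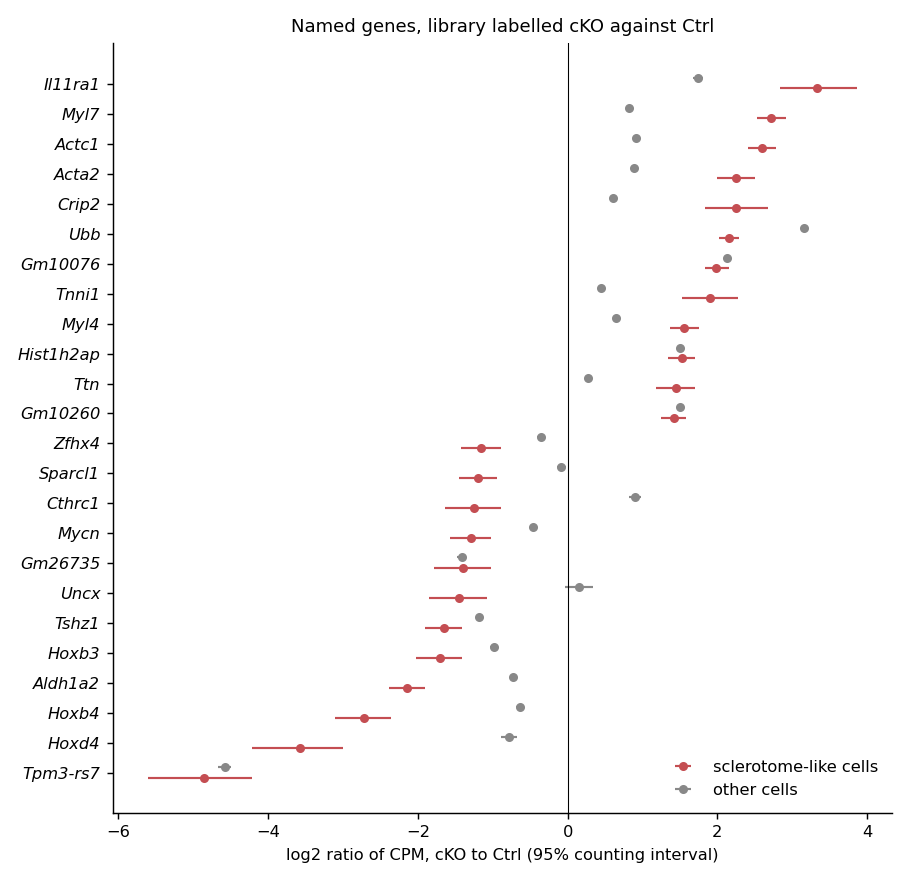
Log2 ratio of CPM, cKO to Ctrl (x axis), with exact 95% counting intervals, for the 12 lowest and 12 highest named genes (y axis) in sclerotome-like cells and in the other cells of the same libraries. Hoxd4 lies at −3.58 in sclerotome-like and −0.78 in other cells, whereas Tpm3-rs7 lies at −4.86 and −4.58.

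Few members held UMIs of both Uncx and Tbx18, the genes of the caudal and the rostral part, and those with Uncx alone were a smaller share in cKO. Members with Uncx and no Tbx18 UMIs were 115 of 274 in Ctrl (42.0%, 36.1 to 48.1) and 28 of 167 in cKO (16.8%, 11.4 to 23.3), and members with Tbx18 and no Uncx were 72 (26.3%) and 49 (29.3%). Both genes were found in 12 Ctrl and 5 cKO members, with median depths of 42514 and 36025 UMIs, and 75 (27.4%) and 85 (50.9%) held neither. Since Uncx could admit a member and Tbx18 could not, these classes are a description. A Tbx18 UMI was found in 30.7% of Ctrl (25.3 to 36.5) and 32.3% of cKO members (25.3 to 40.0), against 17.6% (13.1 to 22.8) and 18.3% (15.2 to 21.7) of cells with high cardiomyocyte RNA and 2.45% and 3.59% of cells with endothelial RNA. After thinning to 5000 UMIs the shares of members were 9.96% (6.67 to 14.2) and 13.2% (8.44 to 19.3), against 7.81% (4.84 to 11.8) and 5.73% (3.96 to 8.0) of the cardiomyocyte class. The Ctrl intervals overlapped and the cKO intervals did not. Of thinned cells with endothelial RNA, 0 of 243 in Ctrl and 4 of 216 in cKO (1.85%) held a Tbx18 UMI. Because of the overlap in Ctrl, the Tbx18 class is not called rostral sclerotome, and whether its UMIs were free RNA was not tested. Uncx UMIs were found in 1.95% and 2.33%, and in 0.816% and 0.448%, of those cells. Tbx18 itself was at 30.8 CPM (26.5 to 35.7) in Ctrl and 25.9 CPM (20.9 to 31.7) in cKO, which differed by less than the counting error.

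Several genes differed between the Uncx and the Tbx18 class in both libraries. Pcp4 was at 777 and 229 UMIs in the Uncx and Tbx18 classes of Ctrl and at 161 and 130 in cKO, a log2 ratio of CPM of 1.28 (1.06 to 1.49) and 1.32 (0.98 to 1.67). Mycn was higher in the Uncx class by 1.10 (0.77 to 1.44) and 2.20 (1.37 to 3.09), and Meox1 by 0.54 (0.36 to 0.73) and 0.40 (0.10 to 0.69). Rspo3 was lower in the Uncx class, with ratios of −1.70 (−2.14 to −1.26) and −1.62 (−2.40 to −0.91), as was Cthrc1, with −1.26 (−1.67 to −0.86) and −2.57 (−4.91 to −0.91), and Foxd1, with −0.70 and −0.58. Efnb2, the ephrin of the caudal half-segment, was higher in the Uncx class of Ctrl (0.93, 0.36 to 1.52), and its interval in cKO, read from 9 and 14 UMIs, covered 0 (−1.01 to 1.69). Epha4, the receptor of the rostral half-segment, was not set apart in Ctrl (−0.28, −0.68 to 0.13) and was lower in the Uncx class of cKO (−1.33, −2.48 to −0.34, from 10 and 51 UMIs). Twist1, Sox9, Foxc1 and Foxc2 differed by at most 0.22 on the log2 scale. Myl7 was also higher in the Uncx class, by 1.73 and 1.78, and its part in the other ratios was not tested. Of the segmentation genes, Efnb2 (−1.38) and Notch1 (−1.07) were at least 2-fold lower in cKO than in Ctrl members, Epha4 (−0.47) and Tbx18 (−0.25) less, and the median of the 4 measured genes was −0.77, against −0.75 for the same genes in the other cells. Ripply2 and Mesp2, which mark somites as they form, were at 0 UMIs in both.

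**Figure D5:**
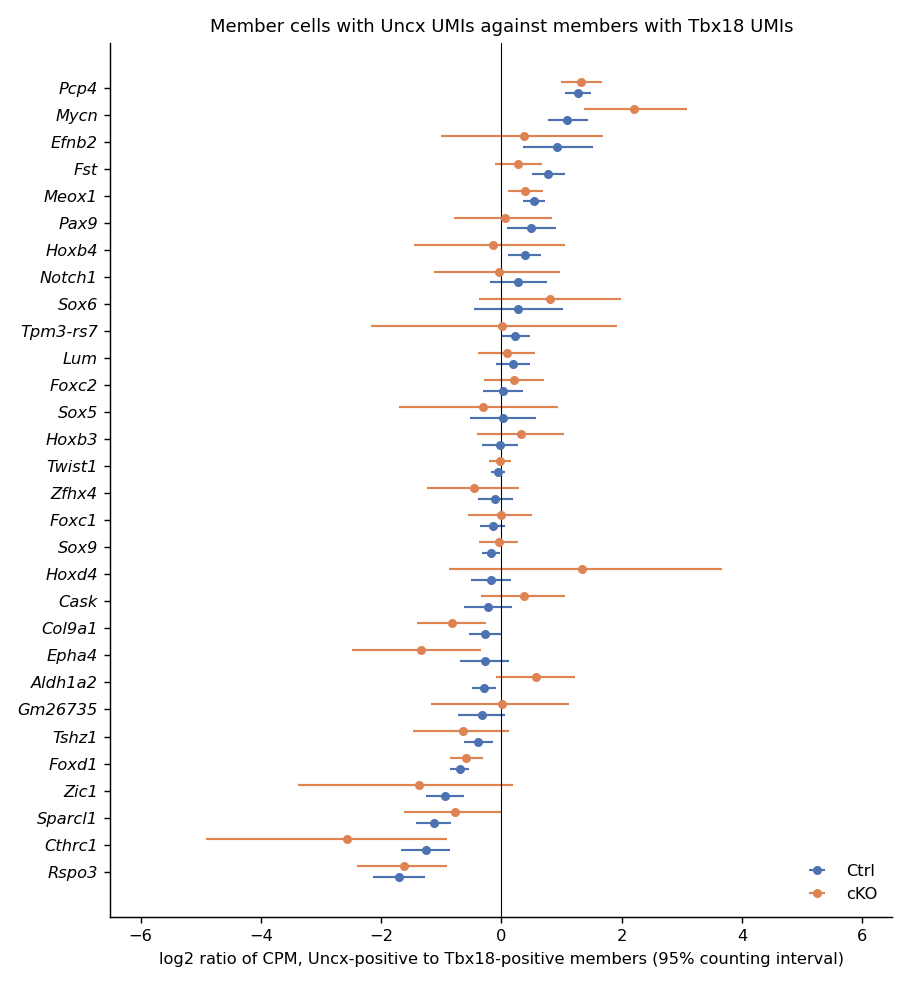
Log2 ratio of CPM (x axis) of members with Uncx and no Tbx18 UMIs to members with Tbx18 and no Uncx UMIs, with exact 95% counting intervals, for named and listed genes (y axis) in Ctrl and cKO. Pcp4 lies to the right in both libraries (1.28 and 1.32) and Rspo3 to the left (−1.70 and −1.62).

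Genes of the dermomyotome and myotome were at about the level of the other cells, with a summed 74.2 CPM in Ctrl and 59.6 CPM in cKO members against 78.8 and 61.1 CPM, and 0 of 2 measured against those cells were at least 2-fold lower. Pax3 was at 8.78 and 13.8 CPM and was found in 5.47% of Ctrl and 8.98% of cKO members, above the 0.781% and 1.25% of cells with high cardiomyocyte RNA. Eya1, a coactivator in muscle regulation, was at 19.1 and 17.2 CPM. Myf5, the first of the muscle determination factors, had 84 UMIs in Ctrl and 4 in cKO members (14.5 and 1.13 CPM, log2 ratio −3.68, −5.59 to −2.27), and its ratio in the other cells was −4.07. Myod1 and En1 were at 0 UMIs in both libraries and Myog at 7 and 2.

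Members with 1 Pax1 UMI were compared with members that had 2 or more, 67 and 207 cells in Ctrl and 52 and 115 in cKO. Sox9, Foxc1 and Meox1 differed by at most 0.34 on the log2 scale. Lum was higher in members with 2 or more by a log2 ratio of 1.08 in Ctrl and 0.52 in cKO, and Twist1 by 0.35 and 0.22. Pax9 was higher by 0.69 in Ctrl (0.25 to 1.16) and by 0.24 in cKO (−0.33 to 0.84). Pax3 was lower with more Pax1 in Ctrl (−1.54) and Tbx1 in cKO (−2.01), and Hbb-y in cKO (−5.11), where 12 of the 52 members with 1 Pax1 UMI were presumed doublets.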

How the data were processed

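The authors deposited 1 count matrix per library, holding UMI counts per gene and cell barcode made with Cell Ranger 3.1.0 and the mm10 genome per the submitters' processing notes, for 27998 genes and 7418 Ctrl and 10281 cKO barcodes (132017331 and 162874391 UMIs). These counts were used as deposited. Cells in which 1000 or more genes were detected and mitochondrial UMIs made up no more than 10% were kept, and doublets were not removed, since Scrublet (scanpy 1.11.5) with its automatic threshold called 0% of Ctrl and 7.82% of cKO cells; presumed doublets are the highest scores at 0.8% per 1000 recovered cells. UMIs were summed over cells per library as CPM with exact Poisson intervals, ratios with exact conditional binomial intervals and shares with Clopper-Pearson intervals (Python 3.11.15, NumPy 2.4.6, SciPy 1.17.1, pandas 2.3.3); UMIs remove PCR copies only in part, and intervals cover counting error only. With 1 library per group no test was run. A gene was measured with at least 10 CPM in 1 library and at least 30 UMIs over both together, and no ratio was given with 3 UMIs or fewer in both libraries. Cardiomyocyte RNA was called high with at least 20 Tnnt2 and 3 Ttn UMIs, and endothelial RNA with at least 2 Cdh5 and 1 Pecam1 UMIs. Named genes were those of the rule, the 2 to 5 most abundant or defining genes of each list, the 15 highest ratios of members to other cells at 50 CPM or more in both libraries, the 12 highest and 12 lowest ratios of cKO to Ctrl at 50 CPM or more in 1 library with the same direction in both sexes (without mitochondrial, ribosomal protein, haemoglobin, Xist, Tsix and Y-linked genes), and Tbx1. A few other genes were named after their values were seen, and a few genes that this rule takes are not reported here. The members and the lists were chosen with earlier results of these data known. Scripts were checked on simulated data with known ratios.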

Additional observations from a re-analysis of the deposited data

Results flagged for a closer look

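For 5 named genes the direction of the ratio of cKO to Ctrl was opposite in 2 classes of cells. With 1 library per group, every such difference was not tested, and no explanation was weighed. Tcf15, which the members were selected on, had a log2 ratio of 0.18 in members and −0.39 in the other cells. Meox1 had −0.27 in members and 0.69 in the other cells, and Cthrc1 −1.25 in members and 0.90 in the other cells. Foxd1, at −0.026 over all members, had −0.48 in Xist-only and 0.35 in Y-only members, and Fst, at 0.11 over all members, −0.89 and 1.40. The Xist-only values rest on 9 cKO cells, 6 of them presumed doublets, and the Y-only values on 21 Ctrl cells.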

How the results depend on the processing

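No paired analysis was possible because each group had 1 library and no replicate. The log2 ratios of the 24 named genes kept their sign in 13 of 13 alternative settings, 2 of which, the sexes, the naming rule had fixed. Over values of single genes, of lists and of members against other cells, 464 stayed within the counting interval given for all members, 147 left it and 3 reversed. The log2 ratio ranged from 1.68 to 6.49 for Myl7, from 0.24 to 5.34 for Tnni1, from 1.74 to 5.53 for Acta2 and from −3.16 to −0.59 for Sparcl1. The shares, counts of genes and main medians that moved, and all values that reversed, were these. With at least 2 Pax1 UMIs the shares of members were 2.95% in Ctrl and 1.18% in cKO. With cells thinned to 5000 UMIs the shares were 1.87% and 0.713%, 64 genes were at least 2-fold higher and 227 lower in cKO, and the Hox median was −1.94. In Xist-only cells the shares were 6.36% and 0.167%, the counts 487 higher and 775 lower, and the Hox median −0.092; the presomitic median (−0.80) and the ratio of Lum to other cells (smaller of both libraries, −0.55) reversed. In Y-only cells the shares were 0.771% and 3.69%, reversing their order, the counts 246 and 411, and the median of the sclerotome transcription factors 0.054. That median changed sign from −0.61 over all members but was not counted among the 3 that reversed. The ratio of Rspo3 to other cells reversed (−0.26). Without presumed doublets 230 genes were lower, and with at least 1 UMI in each library as the filter 576 were higher and 863 lower, with more genes counted. At 1.5-fold the counts were 317 and 894. After seeing the data, 2 settings were added: without cells holding Xist and Y-linked UMIs 231 genes were lower, and among members with a Hox group 4 UMI 218 were higher and 282 lower, with a median of −1.16 for the sclerotome transcription factors. Fewer cells enter the sex classes, and 9 Xist-only cKO members limit every value there; the cause of each shift was not tested. Depth limits genes under 3 UMIs.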

Other observations

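Lists of markers of other mesoderm had lower summed levels in members than in the other cells of both libraries. Pharyngeal mesoderm genes summed to 81.2 CPM in Ctrl and 107 CPM in cKO members, against 395 and 279 CPM in the other cells, and lateral plate mesoderm genes to 103 and 145 CPM, against 470 and 385 CPM. Cranial mesenchyme genes summed to 17.9 and 24.5 CPM, against 82.5 and 89.5 CPM, and intermediate mesoderm genes to 3.61 and 3.94 CPM, against 16.0 and 13.9 CPM. Neural tube genes summed to 1.38 and 4.78 CPM, against 10.2 and 12.4 CPM, and notochord genes to 0 and 2.53 CPM, against 3.86 and 3.91 CPM. Neural crest genes were higher in members, at 57.7 and 40.8 CPM against 47.6 and 31.6 CPM, with 3 of 6 at 0 UMIs in both libraries. Cells with at least 2 companion UMIs, 0 Pax1 UMIs and 0 Epcam UMIs were 441 in Ctrl (6.29%) and 533 in cKO (5.45%), and their sex classes leaned as in the members but less far, with 56.5% Xist-only in Ctrl and 32.3% in cKO.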
